A study of Mus musculus with 9 samples.

Results

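Small nucleolar RNAs (snoRNAs) were counted in small RNA libraries of exosomes, the small vesicles that cells release, from RAW264.7, a mouse macrophage line. The members described here are all rows that the deposited tables class as snoRNA, joined by family over the 9 libraries: 297 Rfam families (groups of related RNAs) of 14210 features listed in 14 classes. The 9 libraries were 3 from untreated RAW264.7 cells, 3 from cells given silica for 24 hours and 3 from cells given silica for 48 hours. The labels give no dose and no kind of silica. The culture medium of every group held fetal bovine serum, and the vesicles were collected by ultracentrifugation. Nothing in the labels says that the 3 libraries of a group came from separate cultures, so the p-values below measure the spread between libraries, which may be technical.

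In the cell, snoRNAs work in the nucleolus as guides. C/D box snoRNAs pair with ribosomal or spliceosomal RNA and direct methylation of the ribose by fibrillarin, whereas H/ACA box snoRNAs direct the change of uridine to pseudouridine by dyskerin. A few, such as U3, are needed to cut the ribosomal RNA precursor rather than to modify it, and small Cajal body RNAs (scaRNAs) guide the modification of spliceosomal RNAs. Most mammalian snoRNAs are cut out of introns of other genes, many of them genes for ribosomal proteins or for non-coding host RNAs such as Gas5 and Snhg1.

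By their Rfam descriptions, 112 of the 297 families were C/D box, 50 were H/ACA box and 15 were scaRNAs. A further 100 families are named after other organisms, such as fungi, plants and archaea, and 20 could not be placed in a class. A read counted in a family named after another organism shows only that it matched that Rfam model. Of the 297 families, 84 matched mouse gene symbols in the GENCODE M21 annotation (GRCm38, the mm10 build).

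The sequences of matched genes from some of the families that the results below turn on are shown to let a reader see the guide RNAs concerned. The capitals mark the first TGATGA (the C box consensus) and the last CTGA within the final 25 bases (the D box consensus), searched on the RNA's own strand. Both motifs, each within 25 bases of its end, were present in 68 of 97 genes named Snord (70.1%), in 0 of 40 genes named Snora and in 20.6% of all 1529 snoRNA and scaRNA genes of the annotation.
Snord57: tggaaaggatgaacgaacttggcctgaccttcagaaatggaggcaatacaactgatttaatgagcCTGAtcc
Snord99: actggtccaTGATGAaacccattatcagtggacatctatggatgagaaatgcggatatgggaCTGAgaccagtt
Snord50a: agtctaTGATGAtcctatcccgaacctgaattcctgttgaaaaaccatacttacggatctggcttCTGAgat
Snord50b: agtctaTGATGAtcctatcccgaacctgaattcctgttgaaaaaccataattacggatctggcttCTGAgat
Rnu3b1: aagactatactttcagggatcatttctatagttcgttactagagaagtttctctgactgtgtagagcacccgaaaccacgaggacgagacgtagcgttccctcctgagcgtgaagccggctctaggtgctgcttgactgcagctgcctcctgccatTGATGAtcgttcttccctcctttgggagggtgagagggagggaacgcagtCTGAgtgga

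Snord57 lies at chr2:130278016-130278087 on the plus strand, within Nop56, which encodes a core protein of C/D box particles. Snord99 lies at chr4:132310691-132310764 on the plus strand, within the host RNA gene Snhg12. Snord50a (chr9:88521529-88521600) and Snord50b (chr9:88521797-88521868) lie on the minus strand within Snhg5, differ at 1 of 72 bases and are counted as 1 family, SNORD50. Snord57, Snord99 and both Snord50 genes are intronic in some annotated transcripts of the host and exonic in others. Snord57 holds no exact TGATGA. Rnu3b1, a U3 gene of 215 bases at chr11:87443237-87443451 on the plus strand within an intron of Tex14, has its TGATGA far from the 5′ end. Its copies Rnu3b2, Rnu3b3 and Rnu3b4 are identical to it over these 215 bases. Reads of U3 could therefore not be assigned to 1 copy. SNORD10, SNORD20, SNORD24 and SNORD41 are named only.

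The snoRNA reads were concentrated in few families, nearly all of the C/D box kind. Levels are given as RPM (counts scaled to the library's total of counted reads), without correction for RNA length, so the order of families is an order of reads. The sources used here do not say whether the reads are fragments or whole snoRNAs, nor how a read that matches several families was counted. The mean level over the 9 libraries was above 100 RPM in 10 families, above 10 RPM in 26 families and below 1 RPM in 216 families. The 10 most abundant families held 81.1% to 90.8% of the snoRNA reads of a library. All 10 are C/D box families. They are SNORD10, U3, SNORD57, SNORD99, SNORD20, SNORD14, the family that joins SNORD55 and SNORD39, SNORD41, SNORD24 and SNORD50. C/D box families took 93.6% ± 0.995 (SD, n = 3) of the snoRNA reads in untreated libraries, 95.1% ± 0.644 (SD, n = 3) at 24 h and 95.3% ± 0.555 (SD, n = 3) at 48 h. The untreated libraries were at 93.3%, 92.8% and 94.7% and the 48 h libraries at 96.0%, 94.9% and 95.2%, so that these groups did not overlap. The difference was 1.76 percentage points (exact permutation p = 0.1, the smallest possible, and 0.4 adjusted over 12 comparisons). H/ACA box families held 1.49% to 5.53% and scaRNAs 0.113% to 0.686% of the snoRNA reads.

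A library listed 126 to 182 of the families. In all, 67 families were listed in all 9 libraries and 73 in 1 library. The mean number listed was 153 ± 25.1 (SD, n = 3) in untreated libraries, 139 ± 18.4 at 24 h (SD, n = 3) and 163 ± 16.4 at 48 h (SD, n = 3), a spread that overlapped between all groups. A level of 1 RPM corresponded to 7.71 to 18.7 counts, depending on the library, and 3 counts, the limit that a count of 0 allows, to 0.161 to 0.389 RPM. The snoRNA class held 33546 to 85937 counts per library. These limits cover counting error only. The neuronal snoRNAs SNORD115 and SNORD109A and the family of SNORD113 and SNORD114, all from imprinted gene clusters, had at most 5 counts in any library. None of these 3 families had enough counts to be tested.

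A pair of libraries stood apart from most of the rest. The second untreated library and the second 48 h library had a higher Spearman correlation with each other (0.889 over 92 tested snoRNA families) than any other pair of the 9 libraries. The correlation of the second untreated library with the first untreated library was 0.592 and with the third 0.653. With the second 24 h library, the second untreated library was at 0.786 and the second 48 h library at 0.753. That 24 h library was itself at 0.840 with the first 24 h library. By Pearson correlation the second untreated and second 48 h libraries were at 0.923, and the untreated and 48 h libraries numbered 3 at 0.929. Over 92 families these values describe the libraries and are not a test.

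The make-up by the 2 most abundant families shows where the pair differed. U3, which is needed for the early cuts that release the small subunit RNA, was at 862, 185 and 1089 RPM in the 3 untreated libraries (in the order of their numbers). It was at 980, 689 and 2195 RPM at 24 h, and at 926, 32.6 and 1451 RPM at 48 h. Thus replicate 2 was the lowest of its group each time, and at 48 h it lay far below the other two. SNORD10, a C/D box family with a member that guides methylation of U6 spliceosomal RNA, was at 719, 2063 and 470 RPM in untreated libraries. It was at 1982, 1882 and 1033 RPM at 24 h and at 914, 1162 and 477 RPM at 48 h. In the second untreated library SNORD10 made up 43.5% and U3 3.89% of the snoRNA reads, and in the second 48 h library 45.4% and 1.27%. In the other 7 libraries SNORD10 took 13% to 31.6% and U3 11.6% to 39.6%, with 31.6% and 11.6% both in the second 24 h library. Together both families held 40.2% to 54.2% of the snoRNA reads in every library. For neither family did the groups separate.

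**Figure D1:**
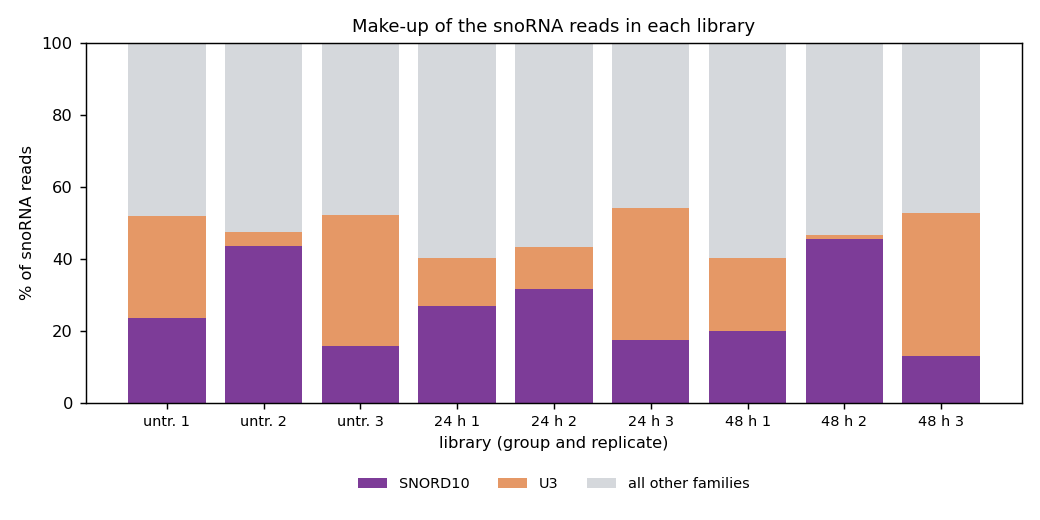
Stacked bars give the percentage of snoRNA reads (vertical axis) held by SNORD10, by U3 and by all other families in each of the 9 libraries (horizontal axis; untr., untreated). In the second untreated and the second 48 h library U3 is down to 3.89% and 1.27%, while SNORD10 is at 43.5% and 45.4%.

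The first question was whether the part of the exosomal small RNA that is snoRNA differed between untreated and silica-treated cells. It was larger in all 3 libraries at 24 h than in any untreated library, and at 48 h it lay in the untreated range. The share of counted reads in the snoRNA class was 0.305%, 0.474% and 0.299% in the untreated libraries, and the 95% Wilson interval of the first of these was 0.302% to 0.307%, for counting error only. It was 0.735%, 0.596% and 0.596% at 24 h and 0.457%, 0.256% and 0.366% at 48 h. The groups of 24 h and untreated libraries did not overlap, nor did those of 24 h and 48 h, while untreated and 48 h libraries overlapped.

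The mean share was 0.359% ± 0.0998 (SD, n = 3) in untreated libraries, 0.642% ± 0.0805 (SD, n = 3) at 24 h and 0.360% ± 0.101 (SD, n = 3) at 48 h. The exact two-sided permutation test gave p = 0.1 for 24 h against untreated and p = 0.1 for 48 h against 24 h. With 3 libraries a group 0.1 is the smallest p that the design allows, so neither difference could pass 0.05. Benjamini-Hochberg adjustment over the 12 comparisons of library values gave 0.4 for both. For 48 h against untreated the exact permutation test gave p = 1, with a difference of 0.000536 percentage points. Without the second untreated and second 48 h libraries the difference was 0.341 percentage points for 24 h against untreated (exact permutation p = 0.2) and -0.231 for 48 h against 24 h (exact permutation p = 0.2). With those libraries left out, 0.2 is the smallest p that this test can give. A share is relative: more snoRNA in the vesicles and less of the other RNAs cannot be told apart.

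The 24 h libraries were also separate on 2 other denominators. As a share of the reads in Rfam classes and hairpin precursors, snoRNA took 2.72%, 6.88% and 2.52% in untreated libraries, 9.41%, 9.74% and 7.56% at 24 h and 4.04%, 3.78% and 4.2% at 48 h. Per 100 reads of mature miRNA there were 0.806, 1.35 and 0.760 snoRNA reads in untreated libraries. There were 2.0, 1.61 and 2.13 at 24 h and 1.25, 0.573 and 0.957 at 48 h. On both scales the lowest 24 h library was above the highest of the other 6 libraries. Without U3 and SNORD10 the share was 0.143% to 0.250% in untreated libraries and 0.273% to 0.439% at 24 h, and the 24 h and 48 h groups then overlapped, with 0.273% both in the lowest 24 h and in the highest 48 h library.

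**Figure D2:**
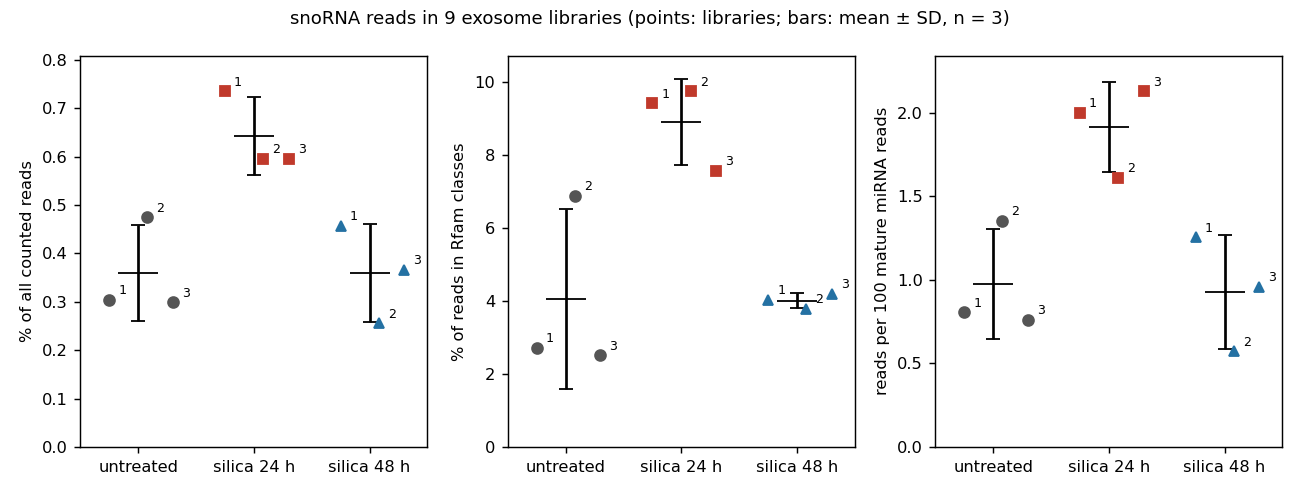
Each panel plots the snoRNA reads of the 9 libraries on a different base (vertical axes, from left: % of all counted reads, % of reads in Rfam classes and precursors, reads per 100 mature miRNA reads) against the group, with the replicate number beside each point and bars for mean ± SD, n = 3. In every panel the 3 libraries at 24 h lie above the other 6.

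None of 7 other classes of small RNA separated the 24 h from the untreated libraries, though miRNA precursors did separate both silica times (1.72% to 2.15% at 24 h, 2.48% to 3.58% at 48 h, exact permutation p = 0.1). The share of rRNA fragments was 2.28% to 3.8% at 24 h and 3.73% to 5.98% in untreated libraries (exact permutation p = 0.2). The share of spliceosomal snRNA was 0.0839% to 0.127% at 24 h and 0.0768% to 0.202% in untreated libraries (exact permutation p = 0.4). The tRNA share was 0.264% to 0.521% at 24 h and 0.180% to 0.483% in untreated libraries (exact permutation p = 0.8).

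A further value separated the 24 h libraries from the others. The summed level of the 3 miRNAs taken as markers of serum, liver or red cells (miR-122-5p, miR-451a and miR-486a-5p, all 3 listed) was 891 to 1413 RPM at 24 h. It was 165 to 729 RPM in untreated and 521 to 612 RPM in 48 h libraries. Of these, only miR-122-5p separated the 24 h libraries from all others by itself. For miR-451a the second 24 h library (365 RPM) lay below the second 48 h library (402 RPM). The level of miR-486a-5p was at most 3.57 RPM in any library and overlapped between 24 h and untreated libraries. Reads in exons, introns, repeats and intergenic sequence made up 52.1% to 61% at 24 h, 47.0% to 55.1% in untreated and 46.5% to 50.8% in 48 h libraries. Here the 24 h and untreated libraries overlapped. The part of these values in the snoRNA share was not tested. The 6 macrophage miRNA markers were all listed, with sums of 18067 to 49221 RPM that came almost wholly from miR-21a-5p and miR-146a-5p, while miR-223-3p was at 16.9 to 77.9 RPM. The macrophage markers miR-142a-5p and miR-142a-3p were at 4.80 to 116 and 3.63 to 123 RPM. Markers of epithelium (4 miRNAs, 13.9 to 61.7 RPM) and neurons (2 miRNAs, 27.8 to 70.9 RPM) were far below the macrophage sums in all groups. They were not clearly below miR-223-3p or the miR-142a strands.

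Of the 10 most abundant families, 6 had higher levels in every 24 h library than in every untreated library: SNORD57, SNORD99, the SNORD55 and SNORD39 family, SNORD41, SNORD24 and SNORD50. All 6 contain guides for methylation of ribosomal RNA. The 10 families were chosen by a mean that includes the 24 h libraries. The SNORD55 and SNORD39 family, SNORD41, SNORD24 and SNORD50 had group means below 100 RPM in both untreated and 48 h libraries and passed that level through their 24 h values, so the count of 6 is partly fixed by the choice and is only a description. By the same choice, 22 of the 160 other features with a mean above 100 RPM were higher in this way (13.8%). Over all tested features the figure was 178 of 1875 (9.49%), against 11 of the 92 tested snoRNA families, a share near this background. Lower in every 24 h library than in every untreated library were 0 of the 10 families and 17 of the 160 other features (10.6%). None of the 92 families passed an adjusted p of 0.05.

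SNORD57 was at 233, 305 and 212 RPM in untreated libraries and at 561, 554 and 700.3 RPM at 24 h. At 48 h it was at 367, 249 and 210.3 RPM. Relative to its mean level, it varied least of these 6 families between the 24 h libraries. Its log2 fold change at 24 h against untreated was 1.28 (SE 0.47, edgeR adjusted p = 0.755, by Benjamini-Hochberg over all features).

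SNORD99 was at 194, 237 and 159 RPM in untreated libraries, at 625, 878 and 423 RPM at 24 h and at 269, 198 and 206 RPM at 48 h. It had the lowest unadjusted p of all snoRNA families for 24 h against untreated. Its log2 fold change was 1.71 (SE 0.50, edgeR adjusted p = 0.755).

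The SNORD55 and SNORD39 family was at 56.2, 173 and 51.4 RPM in untreated libraries. It was at 642, 314 and 215 RPM at 24 h and at 89.3, 38.5 and 53.1 RPM at 48 h. Among the untreated libraries the second again had the highest level. At 24 h the log2 fold change was 2.06 (SE 0.70, edgeR adjusted p = 0.755).

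SNORD41 was at 66.7, 48.9 and 35.7 RPM in untreated libraries, at 542, 82.6 and 113 RPM at 24 h and at 27.2, 21.4 and 63.7 RPM at 48 h. Here 1 library carried most of the difference. The log2 fold change of 2.29 (SE 0.81, edgeR adjusted p = 0.755) was 0.96 without the first 24 h library.

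SNORD24 was at 45.2, 97.8 and 42.8 RPM in untreated libraries, at 314, 120.4 and 185 RPM at 24 h and at 43, 65.4 and 75.3 RPM at 48 h. Its log2 fold change at 24 h was 1.74 (SE 0.62, edgeR adjusted p = 0.755). SNORD50, with the gene pair shown above, was at 59.4, 97.0 and 72.2 RPM in untreated libraries, at 209, 187 and 146 RPM at 24 h and at 68.5, 32.9 and 118 RPM at 48 h. Its log2 fold change was 1.24 (SE 0.60, edgeR adjusted p = 0.755).

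The other 4 abundant families overlapped between the groups. SNORD20, a guide for the small subunit RNA, was at 289, 184 and 245 RPM in untreated libraries, at 228, 411 and 242 RPM at 24 h and at 1011, 62.2 and 403 RPM at 48 h. The 48 h libraries thus held both its highest and its lowest level. SNORD14 (U14), which both modifies the precursor RNA and is needed for its cleavage, was at 76.7, 459 and 148 RPM in untreated libraries. It was at 419.6, 246 and 159 RPM at 24 h and at 118, 275 and 135 RPM at 48 h. The log2 fold changes at 24 h were 0.30 for SNORD20 (SE 0.78), 0.27 for SNORD14 (SE 0.72), 0.86 for U3 (SE 1.02) and 0.59 for SNORD10 (SE 0.61). Without the second untreated and second 48 h libraries they were 0.14, 1.29, 0.40 and 1.46 in the same order. Those of the 6 families above were then 1.45 to 2.86. These 6 were singled out as higher in every 24 h library, so leaving out libraries could not turn their sign.

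**Figure D3:**
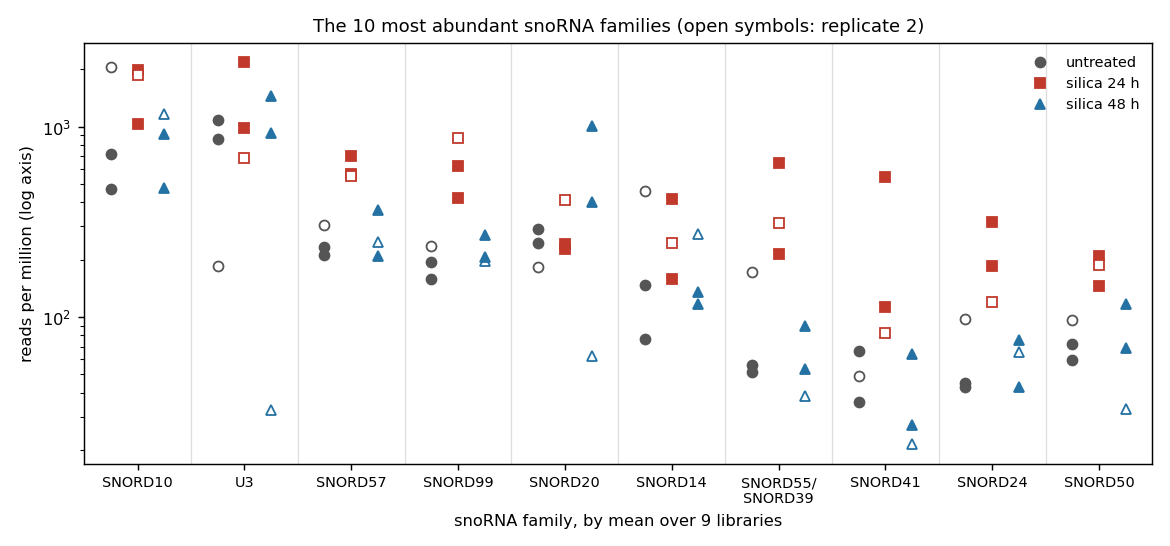
Levels in RPM (vertical log axis) of the 10 most abundant snoRNA families (horizontal axis) are plotted for each of the 9 libraries, with open symbols for replicate 2 of each group. For SNORD57, SNORD99, SNORD55/SNORD39, SNORD41, SNORD24 and SNORD50 the red squares of the 24 h libraries lie above all untreated and all 48 h libraries.

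The 10 families accounted for 97.7% of the difference in mean snoRNA level between 24 h and untreated libraries, which was 2831 RPM, a part that is raised by choosing them on a mean with the 24 h libraries in it. U3 accounted for 20.3%, SNORD10 for 19.4%, SNORD99 for 15.7%, SNORD57 for 12.5% and the SNORD55 and SNORD39 family for 10.5%. SNORD41 added 6.91%, SNORD24 5.11%, SNORD50 3.68%, SNORD20 1.92% and SNORD14 1.66%. The parts of U3 and SNORD10 rest on groups that overlapped.

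In the test of 24 h against untreated over all 1875 features with enough counts, 0 snoRNA families passed by edgeR (0% of all features). DESeq2 called 0 families and 12 features in all (0.845% of those with an adjusted p), and limma-voom called 0 families and 0 features. At an unadjusted p under 0.05, 5 families were higher and 1 was lower, while of all features 57 were higher (3.04%) and 56 lower (2.99%). The median log2 fold change was 0.14 over the 92 families and 0.084 over all features, and it was above 0 in 50 of the 92 families and in 52.4% of all features. Without the second untreated library the medians were 0.68 over the families and 0.29 over all features, so their closeness rests on that library. The 1 family with p under 0.05 in the lower direction was SNORD47, a guide hosted by Gas5, with 11, 147 and 8 counts in untreated libraries and 0, 4 and 0 at 24 h. It was also the 1 family of 92 that lay lower in all 24 h libraries than in all untreated libraries (80 of all 1875 features, 4.27%).

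At 48 h against untreated, 0 of the 92 families and 0 of all features passed (0%), with a lowest adjusted p of 1 by edgeR. DESeq2 called 0 families and 7 features in all (0.386% of those with an adjusted p), and limma-voom called 0 of both. At an unadjusted p under 0.05, 0 families were higher and 2 were lower, with 14 (0.747%) and 41 (2.19%) of all features. The groups of all 10 abundant families overlapped, and of the 160 other features above 100 RPM 3 were higher (1.88%) and 2 lower (1.25%) without overlap. Over all tested families 0 were separate in the upward direction (1.6% of all features) and 4 in the downward direction (2.29%), namely SNORA74, SNORA7, SNORD93 and sR55. Of these, SNORA74 and SNORD93 were picked for naming with their values in view. SNORA7, an H/ACA box family, was at 14.1, 20.2 and 13.3 RPM in untreated libraries and at 10.1, 8.26 and 11.7 RPM at 48 h. The log2 fold change was above 0 in 34 of the 92 families and in 45% of all features. One of the 2 lower families was SNORA21, an H/ACA box guide, at 13.8, 43.9 and 4.10 RPM in untreated libraries, 15, 7.08 and 15.3 RPM at 24 h and 3.41, 4.40 and 3.67 RPM at 48 h. Its log2 fold change at 48 h was -2.43 (SE 0.91, edgeR adjusted p = 1) and -1.23 without the second untreated library. The other was sR55, a family named after archaea, with 21, 1 and 25 counts in untreated libraries, 6, 14 and 269 at 24 h and 0 in each 48 h library. SNORA70, also an H/ACA box family, had the next lowest p. It was at 17.5, 110 and 13.9 RPM in untreated libraries, 76.3, 71.4 and 31.4 RPM at 24 h and 5.94, 9.43 and 34.4 RPM at 48 h, so that both times overlapped with the untreated libraries.

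Both silica times were also compared with each other. The 6 families that separated at 24 h from the untreated libraries were also lower in all 48 h libraries than in all 24 h libraries, which is 6 of the 10 abundant families. This count is likewise partly fixed by the choice of families, and both comparisons share the 24 h libraries. Among the 160 other features above 100 RPM, 16 were lower in this way (10%), and among all features 227 (12.1%), against 16 of the 92 families. In the upward direction 0 of the 10 families and 16 of the 160 features (10%) were separate. The log2 fold change was above 0 in 40 of the 92 families and in 43.5% of all features. Over all tested families 2 were separate upward, and 82 of all features were (4.37%).

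The log2 fold changes of 48 h against 24 h were -1.14 for SNORD57 (SE 0.47), -1.52 for SNORD99 (SE 0.50), -2.69 for the SNORD55 and SNORD39 family (SE 0.72) and -2.72 for SNORD41 (SE 0.83). They were -1.75 for SNORD24 (SE 0.62) and -1.30 for SNORD50 (SE 0.60). None of the 92 families passed by edgeR (0% of all features), and the lowest adjusted p was 0.393. DESeq2 called 2 families, the SNORD55 and SNORD39 family (adjusted p = 0.00984) and SNORD41 (adjusted p = 0.0333). It called 34 features in all (2.52% of those with an adjusted p), so 2 families of 92 are near the background. Limma-voom called 0 families and 0 features. Without the first 24 h library the edgeR log2 fold change of SNORD41 was -1.39. At an unadjusted p under 0.05, 7 families were lower and 2 higher, with 106 (5.65%) and 68 (3.63%) of all features. The 2 higher families were SNORD47, described above (30, 53 and 4 counts at 48 h), and SNORD43, which was likewise picked with its values in view. SNORD43, a guide for the small subunit RNA, was at 43, 64.9 and 13.5 RPM in untreated libraries, 3.85, 24.4 and 10.1 RPM at 24 h and 272, 10.2 and 33.1 RPM at 48 h. Its log2 fold change was 3.03 (SE 1.19, edgeR adjusted p = 0.521), and it was 0.75 without the first 48 h library. For SNORD10, U3 and SNORD14 the log2 fold changes were -0.94 (SE 0.62), -0.68 (SE 1.02) and -0.64 (SE 0.72). U3 was at -0.055 without 24 h library 3 and at -0.12 without the second 48 h library, and SNORD14 at -0.20 without the first 24 h library. For SNORD20 the value was 0.74 (SE 0.78).

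**Figure D4:**
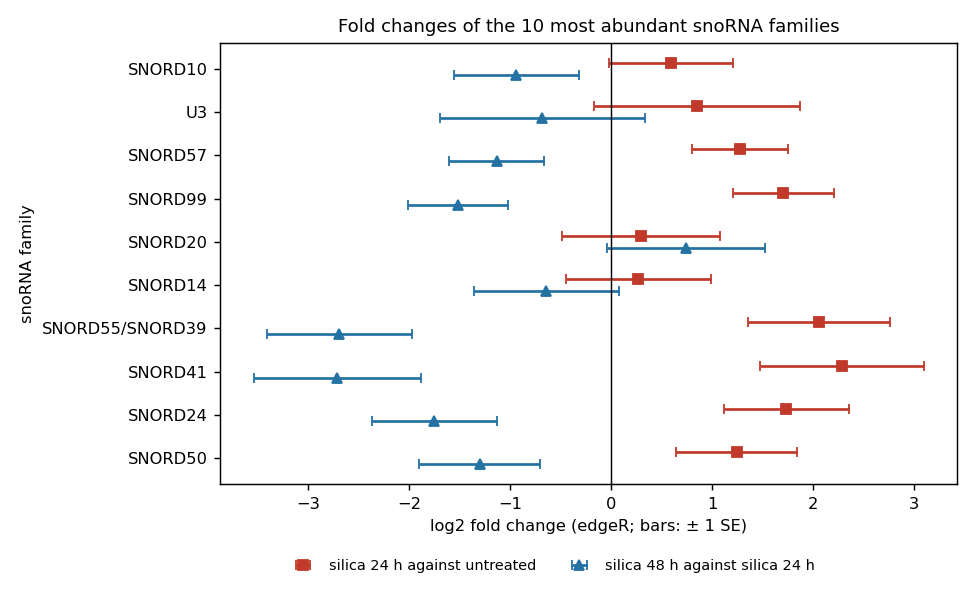
Log2 fold changes by edgeR (horizontal axis; bars, ± 1 SE) of the 10 most abundant families (vertical axis) are shown for 24 h against untreated and for 48 h against 24 h. For SNORD57, SNORD99, SNORD55/SNORD39, SNORD41, SNORD24 and SNORD50 the first lies between 1.24 and 2.29 and the second between -2.72 and -1.14, and no value passed an adjusted p of 0.05.

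Families grouped by function or host gene had few testable members. Of the 8 families for processing of the ribosomal RNA precursor, 4 were tested (U3, SNORD14, SNORD22 and the SNORA73 family), and 0 passed in any comparison. Their median log2 fold change was 0.19 at 24 h, with 3 of 4 above 0, and -0.10 at 48 h. The SNORA73 family (U17), an H/ACA box RNA needed for the small subunit, was at 8.60, 41.5 and 5.61 RPM in untreated libraries. It was at 11.9, 20.3 and 6.62 RPM at 24 h and at 16.4, 19.0 and 4.71 RPM at 48 h, with the second library the highest in each group. U8, which is needed for the large subunit RNA, had at most 7 counts in a library.

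Gas5 is a non-coding gene that carries many C/D box snoRNAs in its introns, and 4 of its 6 listed families were tested. The log2 fold change at 24 h was below 0 in 4 of 4, with a median of -0.91, and above 0 in 4 of 4 for 48 h against 24 h, with a median of 0.52, and both comparisons share the 24 h libraries. For 48 h against untreated it was below 0 in 4 of 4, with a median of -0.39, and 0 passed in any of the comparisons. SNORD74, the most abundant of them, was at 23.0, 10.7 and 8.73 RPM in untreated libraries, 7.43, 15.6 and 10.1 RPM at 24 h and 25.7, 1.98 and 11.7 RPM at 48 h. SNORD44 was at 1.32, 12.2 and 2.76 RPM in untreated libraries, and at 3.39, 2.77 and 2.60 RPM at 24 h. Its groups overlapped, and the second untreated library set the untreated mean. SNORD75, a Gas5 family listed but not tested, had 4, 12 and 7 counts in untreated libraries and 0, 10 and 18 at 24 h. Among all 1875 features, the log2 fold change was below 0 in 893 at 24 h and in 1027 for 48 h against untreated. It was above 0 in 815 for 48 h against 24 h. Of the 7 families hosted by Snhg1, 3 were tested, with a median log2 fold change of 0.11 at 24 h. Of the 3 families hosted by Rpl13a, the gene of a large subunit protein, 1 was tested (SNORD35, 1.85 to 13.2 RPM over the 9 libraries).

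By class, 57 C/D box families were tested, with a median log2 fold change of 0.11 at 24 h, and 17 H/ACA box families, with 0.069. The 5 scaRNAs tested had a median of -1.34 at 24 h, and 4 of 5 were below 0, as were 893 of all 1875 features. The 1 scaRNA above 0, small Cajal body RNA 3, had 8, 4 and 2 counts in untreated libraries. It had 18, 15 and 26 counts at 24 h, and in RPM these groups did not overlap. U89, a scaRNA, had 2, 278 and 22 counts in untreated libraries, 50, 26 and 16 at 24 h and 15, 160 and 18 at 48 h. The pair of libraries that stood apart thus held its highest counts. Small Cajal body RNA 7 had 9, 123 and 13 counts in untreated libraries and 13, 27 and 6 at 24 h. For both scaRNAs the second untreated library set the untreated mean, so the class median and the 4 of 5 rest partly on that library. The 10 tested families named after other organisms had a median of 0.93 at 24 h. The most abundant of them, the A. fumigatus family Afu_294, was at 32.1, 4.94 and 20.3 RPM in untreated libraries, 81.5, 11.9 and 42.8 RPM at 24 h and 8.21, 15.5 and 31.2 RPM at 48 h. Another of these, snR79, a family first described in yeast, was at 25.5, 2.37 and 37.4 RPM in untreated libraries. It was at 42.0, 15.7 and 79.9 RPM at 24 h and at 15.2, 1.66 and 14 RPM at 48 h, with the lowest level of each group in replicate 2.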

How the data were processed

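Counts per feature, as the authors deposited them, were used with the total in the file header as library size. The deposited RPM column (headed TPM in the files) matched the count scaled to that total within 0.005. Per the submitters' processing notes, Trim Galore, Bowtie, HTSeq and the mm10 build were used; the sources used here give no versions, read lengths, strand handling or rule for reads shared by families. All 9 tables were joined by class and identifier, absent rows being 0. One edgeR 4.0.16 quasi-likelihood model over all 9 libraries (R 4.3.3) tested the 1875 of 10237 features that passed filterByExpr with a minimum count of 10, with Benjamini-Hochberg adjustment over all of them: 92 snoRNA families were tested and 205 were not. The exon, intron, intergenic and repeat totals and the predicted miRNAs stayed out of the test, the totals still counting in the library size. The procedure was tested on simulated data, at the spread of the data and at a smaller spread. Recovery was required only at the smaller spread. The recovery at the spread seen here is not given, so the text states no limit on which changes could be found. DESeq2 1.42.0 and limma 3.58.1 served as alternatives. Library values were compared by exact two-sided permutation tests (SciPy 1.17.1). Alternatives were other scalings, filters and tools, a replicate block and leaving out libraries. Within a group no pair of libraries agreed within sampling noise (chi-square per degree of freedom 55.1 to 428 over snoRNA families).

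Replicate numbers come from the labels. Deviations from the group means of same-numbered untreated and 48 h libraries correlated at 0.212, 0.600 and 0.420 over the 1875 features. The labels state no pairing, and the replicate numbers entered only the replicate block, an alternative run. The main model and the permutation tests treated the libraries as unpaired, so their p-values leave any pairing by number out of account. Families were named if among the 10 most abundant, among the 3 lowest p of a comparison, or among the 4 most abundant of a fixed list or class. The members and lists were chosen with earlier results of these data known. Fold changes are given for the 10 most abundant families and for SNORA21 and SNORD43; other families are given by their levels. The gene matched to 1 of these families is not reported here.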

Additional observations from a re-analysis of the deposited data

Results flagged for a closer look

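Reads listed outside the snoRNA class lay in snoRNA genes. The deposited tables hold 3969 predicted miRNAs with positions, each listed in a library from 10 counts, and 16 of them overlap annotated snoRNA or scaRNA genes on the same strand, 12 lying wholly inside. Both that were higher in every 24 h library than in every untreated library are shown here. Of the 25 predicted miRNAs listed in all 9 libraries, 4 (16%) were higher in this way, and 5 of the 16 were among these 25. The sequences show the gene, with the part that the predicted miRNA covers in capitals.
Gm24888: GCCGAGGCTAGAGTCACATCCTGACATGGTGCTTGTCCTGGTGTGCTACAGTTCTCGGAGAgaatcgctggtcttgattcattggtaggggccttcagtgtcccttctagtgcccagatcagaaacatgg
Gm22711: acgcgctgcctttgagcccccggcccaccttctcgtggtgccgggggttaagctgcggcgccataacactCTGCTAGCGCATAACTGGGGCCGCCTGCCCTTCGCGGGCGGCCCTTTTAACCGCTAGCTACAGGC

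The predicted miRNA novel_mir908 covers bases 1 to 61 of Gm24888 (chr7:109521280-109521409, plus strand), a snoRNA gene of 130 bases in an intron of the ribosomal protein gene Rpl27a. It was at 31.1, 22.7 and 29.0 RPM in untreated libraries, at 71.5, 45.8 and 35.9 RPM at 24 h (mean 51.1) and at 20.5, 14.2 and 26.8 RPM at 48 h. The predicted miRNA novel_mir3310 covers bases 71 to 135 of Gm22711 (chr11:106501243-106501377, plus strand). It was at 8.93, 9.39 and 3.56 RPM in untreated libraries, at 16.7, 13.1 and 11.8 RPM at 24 h (mean 13.9) and at 22.1, 22.9 and 9.08 RPM at 48 h. Outlying libraries were not tested for, since each group has 3.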

How the results depend on the processing

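The 24 h share of snoRNA reads stayed above untreated and above 48 h under every alternative run. Leaving out single libraries gave differences of 0.237 to 0.341 and -0.331 to -0.231 percentage points. Without the second untreated and second 48 h libraries (chosen after seeing the data) they were 0.341 and -0.231. Every 24 h share lay above every other share, so leaving out libraries could not turn these signs. The 48 h difference from untreated had no stable sign: -0.0347 on Rfam classes, -0.0448 per 100 mature miRNA reads, -0.00154 with predicted miRNAs, -0.0482 to 0.0581 with single libraries left out. Families listed differed by -24.5 to 0.5 (24 h minus untreated) with single libraries left out. The main differences were 10 (48 h minus untreated) and 24 (48 h minus 24 h). Counting only families with at least 10 counts, their signs turned, to -4.33 and -1. With every library drawn at random down to the lowest total, the mean numbers were 138 (untreated), 134 (24 h) and 148 (48 h). The SNORD10 share differed by -8.26 to 5.61, -11.1 to 6.45 and -8.78 to 7.38 percentage points (24 h and 48 h minus untreated, 48 h minus 24 h), and the C/D box share by 1.13 to 2.08, 1.36 to 2.32 and -0.117 to 0.515 in the same order.

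Calls for 48 h against 24 h were 2 by DESeq2 (34 over all features, 2.52%) and 1 without the filter (sR55; 28 over all features, 0.274%). The median log2 fold change of all features moved from 0.084 to -0.25 with TMM factors and to -0.81 with the snoRNA total as library size, and that of the families from 0.14 to -0.19 and -0.76 (24 h); for 48 h against 24 h the last gave 0.58. Left-out libraries gave family medians of -0.14 to 0.68 (24 h) and -0.47 to 0.48 (48 h), and without both second libraries 0.76 (24 h; all features 0.26) and 0.39 (48 h). With the snoRNA total, 24 h values turned to -0.13 (SNORD10), -0.15 (U3), -0.62 (SNORD20) and -0.46 (SNORD14), and 48 h against 24 h to 0.047 (SNORD10) and 0.44 (SNORD14). With TMM factors SNORD20 gave -0.048 and SNORD14 -0.035 at 24 h, and limma-voom gave -0.035 for SNORD20 (48 h against 24 h). Single libraries left out gave -0.027 to 0.45 for SNORD20 and -0.17 to 1.29 for SNORD14 at 24 h, and -0.34 to 1.27 for SNORD20 (48 h against 24 h). The cause was not tested. Of the 10 families, 4 changed sign under some alternative at 24 h and 3 for 48 h against 24 h. For 48 h against untreated 8 did. SNORD57, SNORD99, SNORD55/SNORD39, SNORD41, SNORD24 and SNORD50 kept theirs in the first 2 comparisons. These families were singled out because their 24 h libraries lay above all others. Leaving out a library could therefore not turn their sign, and the kept signs are partly fixed by that choice.

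The replicate block called 0 families in each comparison and changed no call. Same-numbered untreated and 24 h libraries correlated at 0.042, 0.369 and 0.299, and 24 h and 48 h libraries at -0.113, 0.263 and 0.202.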

Other observations

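A further pair of predicted miRNAs lay in the snoRNA genes Snord14a and Snora81, with overlapping groups. The capitals again mark the covered part.
Snord14a: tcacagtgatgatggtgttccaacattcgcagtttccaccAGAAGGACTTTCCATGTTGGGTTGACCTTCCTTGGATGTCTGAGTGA
Snora81: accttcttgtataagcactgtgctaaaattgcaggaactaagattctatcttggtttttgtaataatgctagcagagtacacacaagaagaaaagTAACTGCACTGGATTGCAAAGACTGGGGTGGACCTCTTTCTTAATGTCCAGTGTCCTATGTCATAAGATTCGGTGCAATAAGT

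The predicted miRNA novel_mir1 covers bases 41 to 87 of Snord14a (chr7:116333171-116333257, minus strand, within Rps13). It had 11, 323 and 0 counts in untreated libraries, 10, 533 and 257 at 24 h and 0, 113 and 0 at 48 h. The SNORD14 family, to which this gene belongs, was likewise highest among untreated libraries in the second (459 RPM), but among 24 h libraries it was highest in the first (419.6 RPM). The predicted miRNA novel_mir2158 covers bases 96 to 178 of Snora81 (chr16:23110756-23110933, plus strand, within Eif4a2). It had 142, 635 and 103 counts in untreated libraries, 89, 210 and 114 at 24 h and 46, 419 and 59 at 48 h, whereas the SNORA81 family itself had at most 4 counts in a library. With the 16 predicted miRNAs added, the snoRNA share was 0.304% to 0.487% in untreated libraries, 0.607% to 0.747% at 24 h and 0.264% to 0.463% at 48 h.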
